A study of Mus musculus with 112 samples.

Results

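Sperm DNA methylation (DNAme) was followed over time in wild type (WT) male mice after cigarette smoke (CS) exposure had ended. The libraries were those of the 4 CS-exposed WT F0 sperm groups in their order in time, 38 of the 112 libraries of the series, with 62830 regions tested for a trend. The series also holds unexposed WT sperm, Nrf2-/- sperm, and sperm and brain of sons. It was made to learn what CS does to the sperm methylome, whether changes recede once smoke is withdrawn, and whether sons or Nrf2-/- males show the like.

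All 38 males were C57BL/6J WT animals. By the methods of the study, exposure began at 6 to 7 weeks of age and ran for 60 days in each of the groups. Sperm was taken 3 days (smoked WT, n = 9), 28 days (recovery 1, n = 9), 103 days (recovery 2, n = 10) and 171 days (recovery 3, n = 10) after the last exposure. These days come from the methods, since the labels give only the order of the groups. The labels number the libraries of a group as replicates, and each was taken as 1 animal from the methods of the study. The unexposed WT males (control WT, n = 10) were sampled together with the 3-day group only, so no group of unexposed males grew older alongside the recovery groups. Later groups were therefore also older groups, and time since smoke cannot be told apart from age. Control WT took no part in the trend and its values are printed beside it. The unexposed and CS-exposed Nrf2-/- males (n = 10 and n = 9), which lack the transcription factor NRF2 of the oxidative stress response, likewise served only to show levels.

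In mammals, DNAme is the addition of a methyl group to cytosine, mostly where a guanine follows (CpG). The male germ line erases its DNAme in the embryo, writes a new pattern before birth, and then copies that pattern through every division of the spermatogonial stem cells, from which sperm are made for the rest of life. Mature sperm are highly methylated over most of the genome, while CpG-rich promoters stay unmethylated. Reduced representation bisulfite sequencing (RRBS), which was used here, cuts DNA with enzymes that recognise CpG-containing sites and reads an unmethylated cytosine as thymine. A value is the percent of reads at a cytosine that stayed cytosine, and a difference between such percents is given in points. In bulk sperm, such a percent does not tell a change in the DNAme of some sperm from a change in their makeup.

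Sperm identity was examined at loci with a known state in sperm. Promoters that are methylated only on the maternal allele (13 regions of 10 genes such as Peg3, Snrpn and Mest) had group means between 0.806% and 1.16%, and promoters of germline genes such as Dazl and Ddx4 (8 regions of 6 genes) had 1.05% to 1.26%. Cells of the body would carry intermediate DNAme at the former and high DNAme at the latter. Of the regions near paternally methylated control loci, the Meg3 region had 84.7%, whereas those within 10 kb of H19 and Rasgrf1 had at most 1.08%. Whether these lie within the methylated control regions was not tested. Of the imprinted promoters, Kcnq1ot1 and Nnat had no region, nor had the germline gene Sycp1.

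A library had a value at 955186 to 1855546 cytosines in smoked WT. Recovery 2 had the highest group mean of positions and recovery 3 the lowest, a gap larger than the SD of either. Read depth is unknown, as the deposited percents carry no counts. The number of positions had no detectable relation with days (Pearson r = -0.240, permutation p = 0.148). Leaving out any 2 of the 3-day libraries, the farthest from the median day, gave r between -0.377 and -0.0946. The 2 libraries with the lowest means are called below the 2 that stood apart, a label given after the data were seen. Dixon's criterion, used in a closing section, flagged neither of them on mean DNAme over scoreable cytosines. Over the 414162 cytosines with a value in all 38 libraries, smoked WT column 4 had 42.6% and recovery 2 column 8 had 44.5%, against a highest library of 46.9%. The next lowest were smoked WT column 8 (45.0%) and recovery 2 column 6 (45.2%), and the lowest control WT library had 44.5%. Counts of calls without the 2 that stood apart are given below. (Columns are numbered by their order in a group's table.)

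A region here is a run of at least 3 scoreable cytosines no more than 100 bp apart and over 50 bp long, and a cytosine is scoreable with a value in at least 4 libraries of every F0 sperm group. The sequences of 6 regions with a trend are shown because the results below turn on them: the 5 falling regions are described singly and the Wif1 region had the largest rise. They are from the forward strand of GRCm38.p6 (mm10), with 5 bases on each side of the first and last cytosine, in lower case. Capitals mark each CpG in which at least 1 cytosine had a value.
Adamts9 region (chr6:93274283-93274360): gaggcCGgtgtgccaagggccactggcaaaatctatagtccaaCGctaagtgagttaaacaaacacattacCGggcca
Tmsb10 region (chr6:73060178-73060288): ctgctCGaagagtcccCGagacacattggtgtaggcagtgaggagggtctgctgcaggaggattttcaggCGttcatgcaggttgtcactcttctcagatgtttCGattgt
Ddit4 region (chr10:59919735-59919907): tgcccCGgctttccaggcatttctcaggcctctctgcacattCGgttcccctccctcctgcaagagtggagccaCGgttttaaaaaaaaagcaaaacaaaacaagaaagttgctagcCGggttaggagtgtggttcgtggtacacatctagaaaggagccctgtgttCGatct
Prickle2 region (chr6:92596842-92596916): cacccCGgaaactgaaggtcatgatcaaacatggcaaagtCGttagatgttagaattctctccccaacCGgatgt
Ephb1 region (chr9:102274100-102274223): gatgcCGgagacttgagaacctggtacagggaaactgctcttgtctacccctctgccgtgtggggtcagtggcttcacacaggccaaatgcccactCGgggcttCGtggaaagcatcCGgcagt
Wif1 region (chr10:121160342-121160448): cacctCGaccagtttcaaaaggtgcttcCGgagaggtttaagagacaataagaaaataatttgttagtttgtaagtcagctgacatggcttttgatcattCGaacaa
Measured CpGs were few in each stretch, with 3 at Adamts9, Prickle2 and Wif1. The enzymes used cut at CCGG (MspI) and TCGA (TaqαI), and a stretch can be seen to begin at such a site.

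The first question was which regions changed steadily with time. Of 62830 regions tested, 31 (0.0493%) changed with days at an adjusted p below 0.05 (limma, Benjamini-Hochberg). DNAme fell at 24 of them (0.0382% of all regions) and rose at 7 (0.0111%). The fitted change from the 3-day to the 171-day group lay between -28.9 and -3.79 points for the falling regions and between 2.28 and 8.68 points for the rising ones. The count was 15 on log2 of days, 17 on the logit scale and 8 with cytosines joined up to 50 bp. With the spread taken from all 67 F0 sperm libraries 31 regions passed, of which 24 were among those of the main fit. Leaving out 1 library at a time gave 18 to 35 regions. The count dropped by more than 1.5 times without smoked WT column 5 (20 regions), smoked WT column 8 (18), recovery 3 column 4 (20) or recovery 3 column 6 (18). Without the 2 libraries that stood apart it was 24, of which 21 were among the 31 (the regions of Wif1, Flt1, Prex1, Iqcf1, Slc30a10, Slc30a5, Cfap54, Egln3 and Dtx1 were among those lost). With the number of positions as a covariate 18 of the 31 passed, with a trended, robust prior for the variance 13, and with sets of consecutive library numbers from the file headers (facility numbers) as a factor 20 (the regions nearest to Memo1, Prex1, Agtpbp1, Slc30a10, Cfap54, Egln3, Dtx1, Lef1, Flt1 and Ubash3b were among those lost). Only 2 of the 31 passed without the 3-day libraries, and only 1 without the 171-day libraries, beside 19 without the 28-day and 16 without the 103-day libraries. Leaving out the first or the last group also shortens the span of days on which a slope rests. These counts therefore cannot show which groups carry the call.

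**Figure D1:**
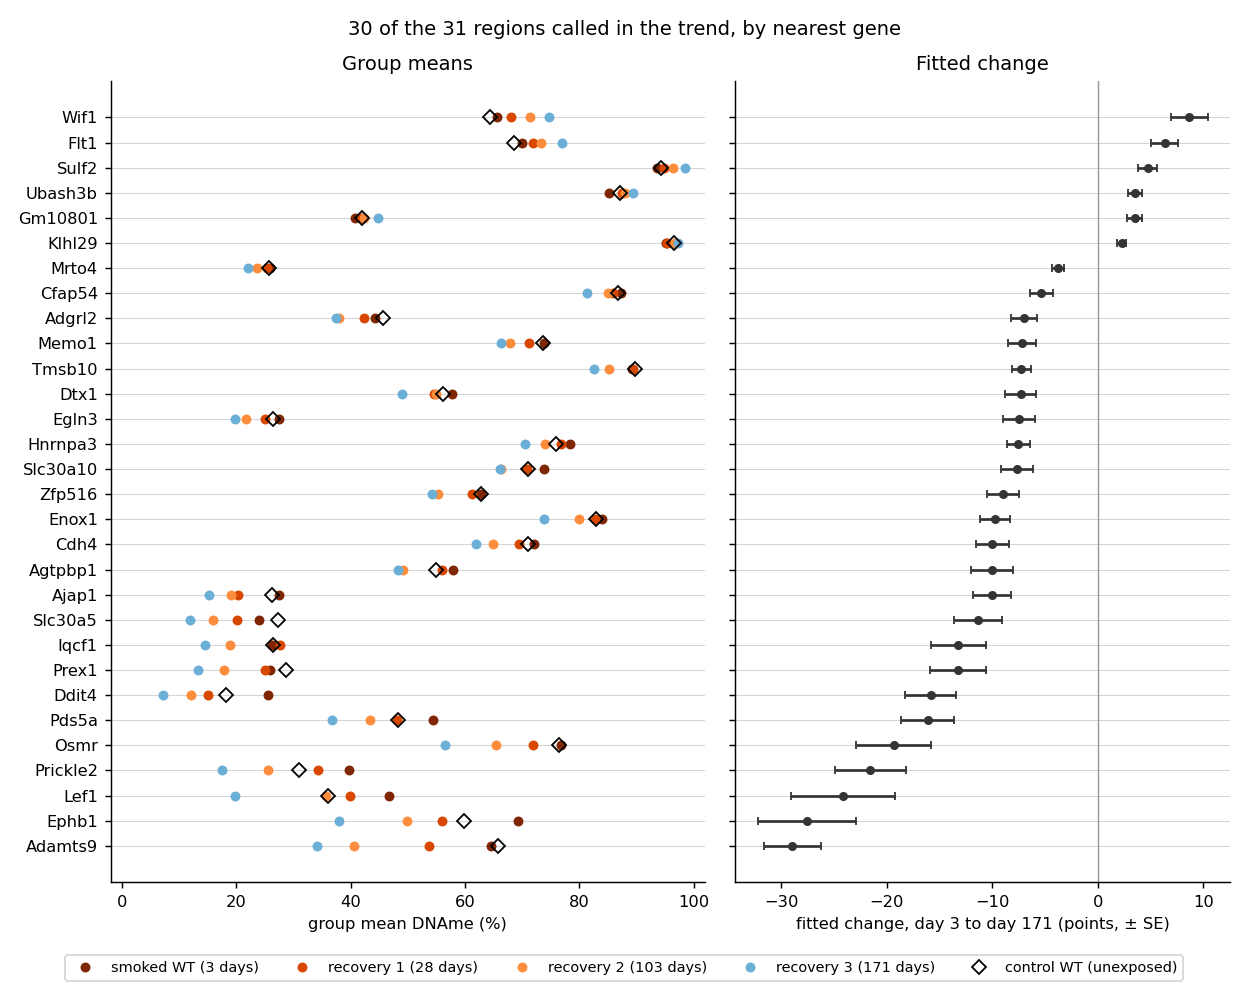
Left, mean DNAme (%) of 30 of the 31 called regions in the 4 CS-exposed groups (filled circles, dark to blue with time) and in control WT (open diamonds); right, fitted change from day 3 to day 171 in points, with bars of 1 SE. The Adamts9 region fell by 28.9 points and the Wif1 region rose by 8.68 points, and most diamonds lie nearer to the 3-day than to the 171-day mean.

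The region with the strongest trend lies between genes on chromosome 6 (93274288 to 93274355), 330796 bp upstream of the start of Adamts9, whose product is a secreted protease that cleaves proteoglycans. DNAme there was 48.6%, 67.1% and 73.6% (lowest, median and highest library) at 3 days, 45.6%, 53.2% and 65.7% at 28 days, 34.2%, 40.2% and 47.8% at 103 days, and 28.1%, 33.1% and 43.6% at 171 days. Every 171-day library was below every 3-day library and every 28-day library, and each group mean was below the one before. The fitted change was -28.9 ± 2.72 points (SE; limma adjusted p = 4.79e-08). Its steps were -10.8 ± 2.85, -13.2 ± 2.78 and -6.48 ± 2.70 points between neighbouring groups. Control WT had 65.9% ± 4.66 (SD, n = 10), close to the 64.5% ± 7.49 (n = 9) of smoked WT, and both Nrf2-/- groups had less (53.9% and 53.3%). It passed in all 21 other settings tried and in 38 of 38 fits that left out a library, and was the only called region to pass without the 171-day group (limma adjusted p = 0.00215). All 4 of its cytosines fell, from -25.3 to -37.2 points. 2 of them passed on their own, at 93274355 and 93274327 (limma adjusted p = 9.24e-06 and 8.87e-05).

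The next region by p was far smaller in size. It covers coding sequence of Dnah6, which encodes a dynein heavy chain of the kind that moves cilia and sperm tails, while the nearest start of a protein-coding gene is that of the actin-binding Tmsb10, 101435 bp away (chromosome 6, 73060183 to 73060283). Regions are named by that start throughout, though it can be far away and starts of noncoding genes can be nearer. Its DNAme was 89.3% ± 1.86 at 3 days and 89.4% ± 1.63 at 28 days, then 85.1% ± 1.94 and 82.6% ± 2.87 at 103 and 171 days. The 171-day libraries (76.4% to 85.9%) all lay below the 3-day libraries (86.1% to 91.2%), and the first 2 groups were alike. The fitted change was -7.23 ± 0.871 points (limma adjusted p = 1.65e-05). Control WT had 89.8% ± 2.42.

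4 further regions lost a large part of their DNAme. Near Ddit4, a stress-induced inhibitor of the growth kinase mTORC1, a stretch between genes (chromosome 10, 59919740 to 59919902, 31932 bp past the start) had 14.7%, 27.3% and 30.6% (lowest, median, highest) at 3 days and 1.54%, 6.45% and 18.0% at 171 days. The means of the 4 groups were 25.6%, 15.1%, 12.1% and 7.21%, a fitted change of -15.8 ± 2.39 points (limma adjusted p = 0.00140). Control WT libraries spanned 7.45% to 31.4% there, with a mean of 18.1% ± 8.38 (SD) and a median of 15.5%. All 3-day libraries lay within that range, and the 171-day libraries overlapped it, although their median was below it. The control WT mean lay between the means of the 3-day group and of recovery 1. Recovery 1 had a value in only 7 of its 9 libraries.

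In an intron of Prickle2, a gene of planar cell polarity (chromosome 6, 92596847 to 92596911), DNAme was 27.8%, 41.6% and 48.8% at 3 days, 17.2%, 34.2% and 48.4% at 28 days, 15.9%, 24.1% and 45.2% at 103 days, and 11.1%, 17.9% and 26.9% at 171 days. The 3-day and the 171-day libraries did not overlap, whereas the 28-day and 103-day groups ranged across both. The fitted change was -21.5 ± 3.36 points (limma adjusted p = 0.00145).

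Within Ephb1, a receptor tyrosine kinase for ephrins, the called region overlaps an exon of the predicted gene Gm37260 and lies 369 bp from its start (chromosome 9, 102274105 to 102274218). There the lowest, median and highest libraries were 56.99%, 68.1% and 93.8% at 3 days and 18.5%, 38.9% and 54.2% at 171 days. The groups did not overlap, and the fitted change was -27.6 ± 4.65 points (limma adjusted p = 0.00469). Control WT had 59.8% ± 9.81, between the 3-day mean (69.4% ± 10.3) and the 28-day mean (56.04% ± 12.2).

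Another stretch, 20897 bp upstream of Pds5a, a regulator of cohesin (chromosome 5, 65719065 to 65719185), went from 54.4% ± 5.27 to 36.7% ± 7.61 with a fitted change of -16.1 ± 2.51 points (limma adjusted p = 0.00145). The reference marks 100% of its bases as repeats, where short reads can map to more than 1 place. Its 3-day libraries (45.6% to 60.1%) and 171-day libraries (25.3% to 48.7%) overlapped.

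**Figure D2:**
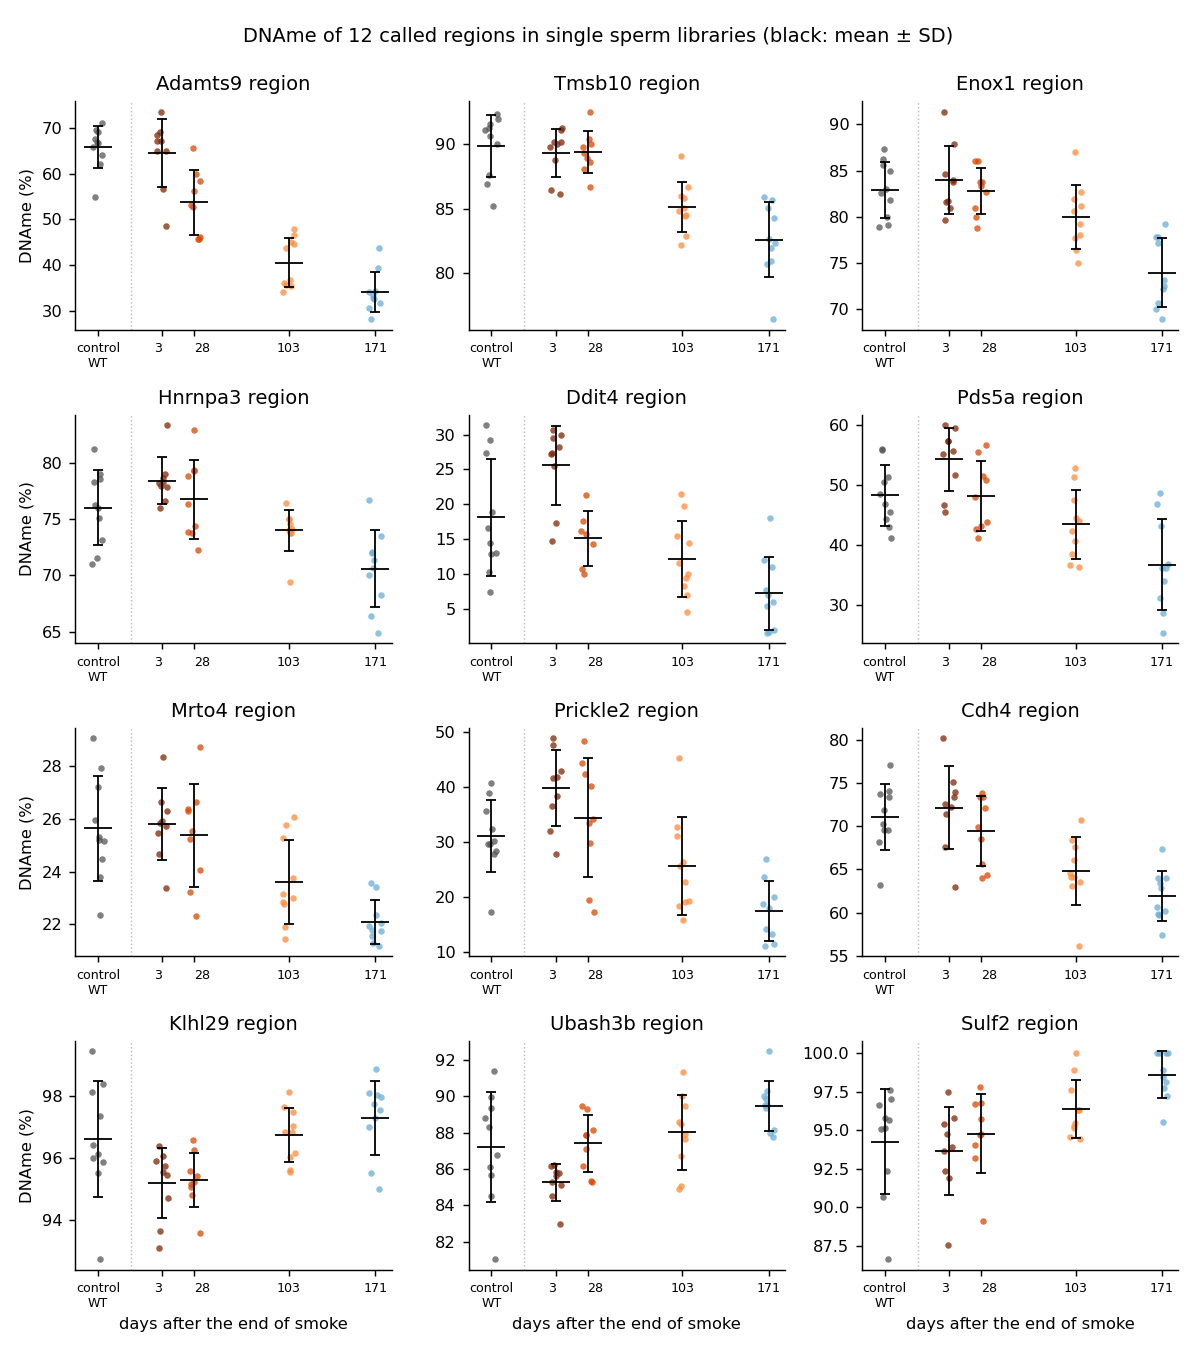
DNAme (%) of single libraries (points) against days after the end of smoke for the 9 falling and 3 rising regions with the smallest p, with the group mean ± SD in black and control WT left of the dotted line. The vertical axes differ in range and do not start at 0. In the Adamts9 panel the 171-day libraries (28.1% to 43.6%) lie below the 3-day libraries (48.6% to 73.6%).

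The other falling regions named by p changed by less than 10 points. They lie in introns of Enox1, a cell-surface oxidase (-9.73 ± 1.39 points), Cdh4, a cadherin (-9.98 ± 1.58 points), and Adgrl2, an adhesion receptor (-6.97 ± 1.21 points), in an intron of AC142100.3 with the zinc finger gene Zfp516 as the nearest protein-coding start (-8.96 ± 1.52 points), and between genes, with the nearest protein-coding starts those of the RNA-binding protein gene Hnrnpa3 (190143 bp away; -7.54 ± 1.12 points) and of the ribosome assembly gene Mrto4 (17485 bp away; -3.79 ± 0.592 points). Enox1 libraries did not overlap between 3 days (79.6% to 91.4%) and 171 days (68.8% to 79.2%), while those of the other 5 did. The Mrto4 region had 25.8% ± 1.36 at 3 days and 22.1% ± 0.822 at 171 days. The calls at Mrto4 and Adgrl2 were lost with a trended, robust prior for the variance (limma adjusted p = 0.218 and 0.0612). Both Nrf2-/- groups stood far above all WT groups at the Mrto4 region (47.2% and 48.5%), and the reference marks 73.9% of the bases of that region as repeats.

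Besides these, 2 falling regions were named for the size of their change. In an intron of Osmr, a receptor subunit for oncostatin M (chromosome 15, 6871814 to 6871879), the group means were 76.9%, 71.9%, 65.4% and 56.4% (fitted change -19.3 ± 3.56 points, limma adjusted p = 0.0154). The 10 libraries at 171 days were spread from 38.4% to 74.2%, as against 68.1% to 84.9% at 3 days. Between genes, 109500 bp from the nearest protein-coding start, that of Lef1, a transcription factor of Wnt signalling (chromosome 3, 131000910 to 131000971), the means were 46.7%, 39.9%, 35.6% and 19.8% (fitted change -24.1 ± 4.90 points, limma adjusted p = 0.0429), with 171-day libraries (n = 9) from 1.96% to 39.6%. At 171 days the 5 forward-strand cytosines of this region had means of 12.8% to 15.2% and the 5 on the reverse strand 29.7% to 35.0%, though at 3 days all 10 lay between 42.5% and 47.3%. The Lef1 call was lost in 25 of 38 fits that left out a library, with a largest adjusted p of 0.140 without recovery 3 column 6, and also with the trended, robust prior (limma adjusted p = 0.0555) or positions as a covariate (0.0549).

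Rises were smaller. The largest was in an exon of the predicted gene Gm10741, 126323 bp past the start of Wif1, a secreted inhibitor of Wnt (chromosome 10, 121160347 to 121160443). Libraries had 61.6%, 66.1% and 67.4% (lowest, median, highest) at 3 days, 60.1%, 69.0% and 74.3% at 28 days, 65.9%, 71.6% and 76.3% at 103 days, and 67.02%, 74.3% and 88.5% at 171 days. The lowest 171-day library was still inside the 3-day range, and the fitted change was 8.68 ± 1.75 points (limma adjusted p = 0.0379). This call was lost without the 2 libraries that stood apart (limma adjusted p = 0.0605), with the number of positions as a covariate (0.0562) and with a trended, robust prior for the variance (0.0981). The region near Flt1, a receptor for vascular endothelial growth factor, rose by 6.33 ± 1.31 points, and 1 in an intron of Sulf2, which removes sulfate from heparan sulfate outside the cell, by 4.72 ± 0.888 points. At Sulf2 the mean went from 93.6% ± 2.86 to 98.6% ± 1.504, near the upper end of the scale.

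The other rising regions described changed by at most 3.56 points. In an exon of the gene 3110039I08Rik, 368261 bp from the nearest protein-coding start, that of Ubash3b, a phosphatase that restrains T cell receptor signalling, the 3-day libraries (83.0% to 86.2%) and 171-day libraries (87.7% to 92.5%) did not overlap. In an intron of Klhl29, a gene of the kelch-like family, the means rose from 95.2% ± 1.13 to 97.3% ± 1.19. The Gm10801 region (chromosome 2, 98662794 to 98662943; 40.8% ± 2.18 to 44.7% ± 1.12) lies in a stretch where 78.7% of bases are marked as repeats and which is known in mm10 for gathering reads from elsewhere. Of the 7, only the Klhl29 and Ubash3b calls held in all 38 fits that left out a library, and the Flt1 call held in 8. The Ubash3b call was lost with sets of facility library numbers as a factor (limma adjusted p = 0.0515). With a trended, robust prior for the variance 1 of the 7 rising calls remained, that of Sulf2 (limma adjusted p = 0.0308), while Klhl29, Ubash3b and Gm10801 had 0.102, 0.112 and 0.532. The Gm10801 and Sulf2 calls were lost with the number of positions as a covariate (limma adjusted p = 0.0683 and 0.0526).

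The 10 called regions that were not named individually all fell, with fitted changes from -13.3 to -5.35 points and limma adjusted p from 0.00790 to 0.0379. Their nearest protein-coding starts are those of Ajap1, Memo1, Prex1, Iqcf1, Agtpbp1, Slc30a10, Slc30a5, Cfap54, Egln3 and Dtx1. 16 of the 31 regions passed in every fit that left out a library, and recovery 3 column 6 was the library whose absence most often gave the highest adjusted p. No called region changed sign in any setting. At the edge of the threshold, the region near Flt1 was the last inside (limma adjusted p = 0.0480) and the first outside were near Srgn (-4.16 points, adjusted p = 0.0565) and Jakmip1 (-8.43 points, adjusted p = 0.0587).

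How the groups were ordered was then described. The 4 group means ran in 1 direction at 28 of the 31 called regions, as the rule of a trend favours. The first step (28 against 3 days) went with the trend at 29 of the 31 regions, the second at 30 and the third at 31. The 3-day and 171-day libraries did not overlap at 7 of the 31, against 29 of all 62830 regions (0.0462%). 6 of these 7 were lower at 171 days and 1 was higher. Since the trend itself picked these regions, the counts describe them and support nothing further.

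Control WT was not used to choose the regions. Its mean lay nearer to the 3-day than to the 171-day mean at 30 of the 31 regions, with a median distance of 1.28 points from the former and 8.29 points from the latter. The exception was Klhl29. Over all regions tested, control WT was nearer to the 3-day group at 53.0%, and at the 4376 regions with an unadjusted p below 0.05 that were not called, at 63.5%. For the falling regions with an unadjusted p below 0.05 the share was 71.4% and for the rising ones 60.8%. Control WT was taken at the age of smoked WT, so in these distances, too, age and days since smoke cannot be told apart.

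The value of a region is built from its cytosines, so their directions and p were largely set by the choice of the regions and are given as a description. Of 163 cytosines in the 31 regions, 159 changed in the direction of their region and 113 did so with an unadjusted p below 0.05, a level met by 42655 of the 1023708 scoreable cytosines. In 27 regions every cytosine went the same way. Strands were measured independently, and the paired cytosines of the middle CpG at Adamts9 fell by 25.3 and 26.1 points on the forward and reverse strand. At Ephb1 the changes ran from -16.4 to -41.7 points, and at Ddit4 from -4.41 to -25.6 points, so that the size of the change was uneven inside a region. Cytosines of 1 region are read from the same animals and often from the same reads, so they are not separate replicates.

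**Figure D3:**
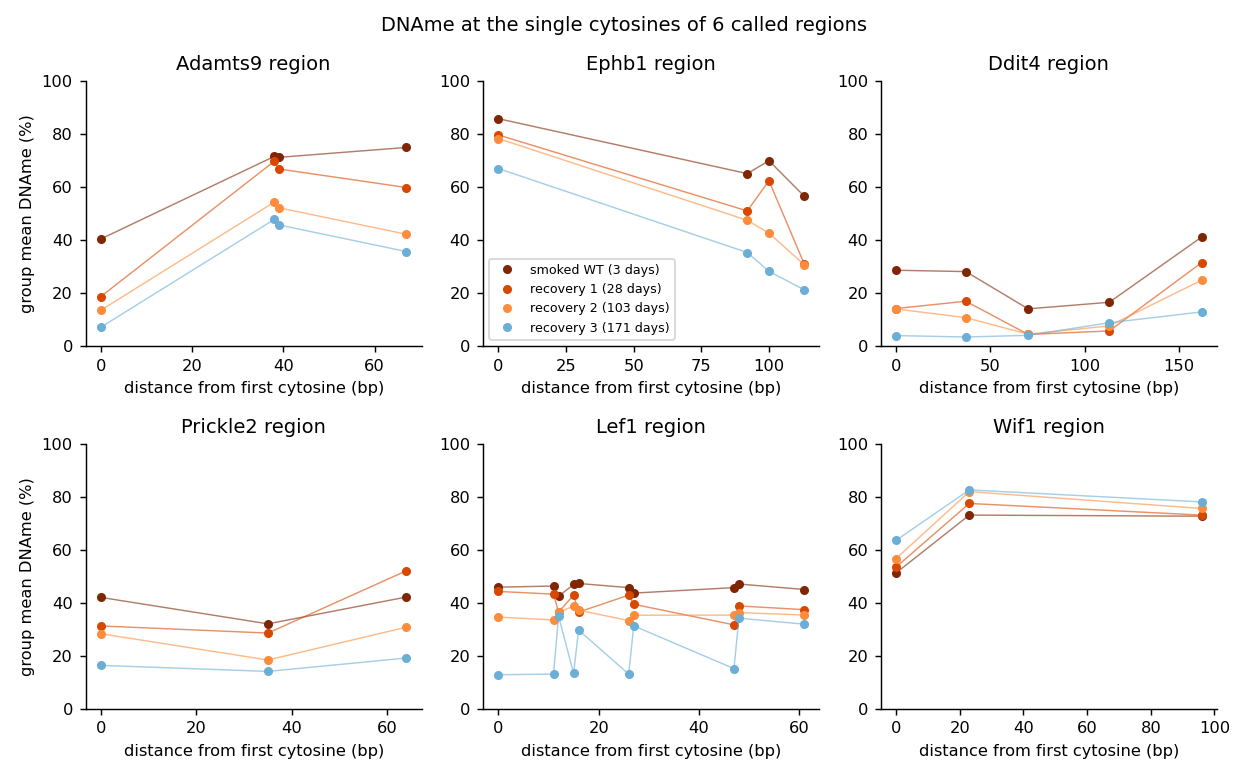
Group mean DNAme (%, axis from 0 to 100) at each measured cytosine of 6 called regions against distance in bp from the first cytosine, coloured by group. At Adamts9 the 4 cytosines keep the order of the groups (the first goes from 40.4% to 7.12%). At Lef1 the 171-day values alternate between the strands.

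RRBS fragments begin and end at the cut sites, where bases are filled in by an enzyme before conversion. Of the 163 cytosines, 85 (52.1%) lay inside a CCGG or TCGA site, as against 31.7% of the 667547 cytosines of all regions. 83 of these 85 changed in the direction of their region, with a median of 7.59 points, and so did 76 of the 78 outside a site, with a median of 6.91 points. Called regions had a median of 4 cytosines, against 6 over all regions and 4 over those with a level between 5% and 95%. Whether the share inside a site goes with the number of cytosines in a region was not tested.

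Over the whole genome, 23 of 1023708 scoreable cytosines (0.00225%) passed the same test on their own (10 rising, 13 falling). With a trended, robust prior for the variance only 2 passed, of which 0 were rising. Of the 23, 8 lay in called regions, 7 in regions that were not called and 8 in no region. The strongest outside the called regions were a pair on both strands of 1 CpG in the Gm10801 stretch (chromosome 2, 98662685 and 98662686), which rose from 32.4% to 39.6% and from 34.4% to 40.2% between the 3-day and the 171-day group. Among those in no region, a cytosine within Adgrv1, a giant adhesion receptor (chromosome 13, 81563514) had the largest change, from 81.0% to 39.6%. A cytosine in the predicted gene Gm26917 on chromosome 17 (39844621) rose from 10.8% to 16.8%, although its region showed no trend (limma unadjusted p = 0.961).

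Surroundings could be examined at only 12 of the 31 regions, which had 21 other tested regions within 5 kb; the rest had none. 14 of the 21 changed in the same direction and 7 of these had an unadjusted p below 0.05, of which 5 were around Gm10801, beside 5.05% rising and 1.96% falling at that level over all regions tested. 0 neighbours passed the adjusted test (limma), and 0 moved the opposite way at an unadjusted p below 0.05. The Adamts9 region had 1 neighbour, 4458 bp away with a level of 92.7%, whose fitted change was -0.796 ± 1.49 points.

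The called regions are described next by position and level. 13 of the 31 (41.9%) were intergenic, 10 (32.3%) intronic, 4 in promoters (within 1 kb of a start), 3 in other exons and 1 in coding sequence. Intergenic regions were 25.2% and intronic ones 23.6% of all regions tested, and 44.1% and 31.2% of the 18206 regions with a level between 5% and 95%. They were found on 14 chromosomes. The 4 in promoters are 12.9%, beside 38.7% of all regions tested and 11.1% of those between 5% and 95%. The median level of the called regions was 53.3%, against 6.43% over all regions and 78.5% over those between 5% and 95%. Of the 31, 17 lay between 25% and 75%, a range that holds 6.37% of all regions and 22.0% of those between 5% and 95%.

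Below the threshold the balance of directions was the opposite. With an unadjusted p below 0.05, DNAme rose at 3174 regions (5.05%) and fell at 1233 (1.96%), so that 72.0% of these 4407 were rising, while 24 of the 31 called were falling. The median change over all 62830 regions was 0.121 points and 57.8% of them had a change above 0. The share rising depended on the processing: it was 61.6% with the number of positions as a covariate, 66.6% without the 2 libraries that stood apart, 53.1% without the 171-day group and between 64.03% and 77.4% in the other settings tried.

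At an unadjusted p below 0.05, the balance of rising and falling regions differed between levels, though not in a steady order along the scale. These shares are from the main fit, and their dependence on level was not tested. Among the 9513 regions between 75% and 95%, 10.2% rose and 1.43% fell at an unadjusted p below 0.05, and the median change was 1.06 points. Among the 4692 regions between 5% and 25%, 2.88% rose and 5.37% fell, and the median change was -0.304 points. Of the 30531 regions below 5%, 2.72% rose and 1.52% fell. Called falling regions were 7 of the 4692 at 5% to 25% and 5 of the 1995 at 25% to 50%. They were 9 of the 2006 at 50% to 75% and 3 of the 9513 at 75% to 95%. Called rising regions in these 4 classes were 0, 1, 2 and 1, with 1 more below 5% and 2 above 95%. At 50% to 95%, more called regions thus fell than rose, unlike the regions at an unadjusted p below 0.05.

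**Figure D4:**
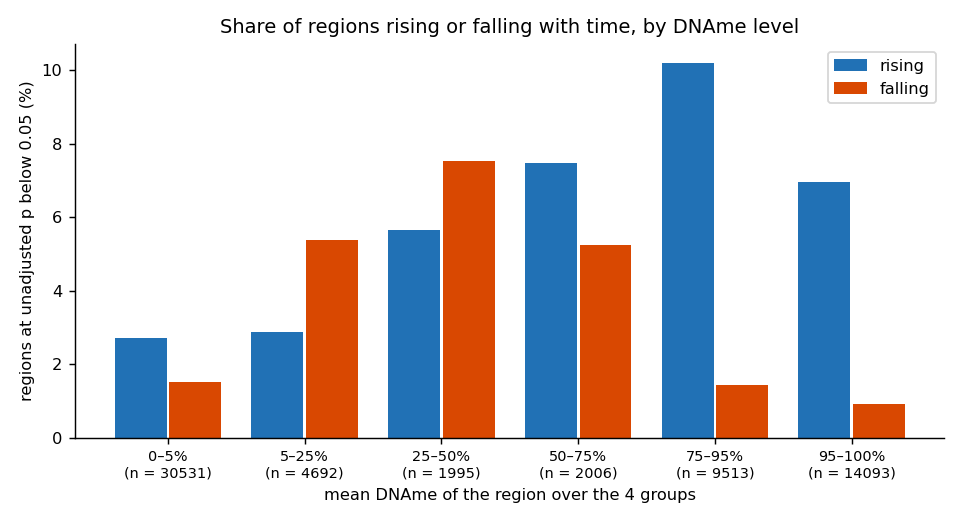
Percent of regions that rose (blue) or fell (orange) with time at an unadjusted p below 0.05, by the mean DNAme of the region over the 4 groups, with the number of regions under each class; bars start at 0. Rising regions are most frequent at 75% to 95% (10.2%) and falling ones at 25% to 50% (7.52%).

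As single values per library, mean DNAme over all scoreable cytosines had no detectable trend, whereas over the cytosines shared by all 38 libraries it rose slightly. Over all scoreable cytosines it was 35.4% ± 2.31 (n = 9) at 3 days, 36.1% ± 1.17 (n = 9) at 28 days, 35.1% ± 1.32 (n = 10) at 103 days and 36.1% ± 0.952 (n = 10) at 171 days. The fitted change was 0.208 ± 0.635 points (r = 0.0545, permutation p = 0.750; rho = 0.0764, permutation p = 0.648), with r from -0.117 to 0.187 when any 2 of the 3-day libraries were left out. The sign turned without smoked WT column 4 (-0.140 points). The 414162 cytosines with a value in all 38 libraries are a part of each library that is the same for all of them. Over these the change was 0.572 ± 0.291 points (permutation p = 0.0467; rho = 0.404, permutation p = 0.0129). Without the 2 libraries that stood apart it was 0.351 ± 0.150 points (permutation p = 0.0244; rho = 0.398, permutation p = 0.0172). The spread of a library around its group, measured over 38401 regions, changed by -0.160 ± 0.143 points (permutation p = 0.272), with group means from 1.91 to 2.09 points. Removing any 2 of the 3-day libraries left its r between -0.250 and -0.0537.

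Regions were also grouped into 15 classes by position, level, CpG density and chromosome, and the mean of each class was tested with 100000 permutations. 1 class passed adjustment over the 15: the 46 regions of chromosome Y, a chromosome that only sperm without an X carry. Their library means had a lowest, median and highest value of 48.4%, 50.4% and 52.7% at 3 days, 49.3%, 51.6% and 53.1% at 28 days, 49.05%, 52.6% and 54.7% at 103 days, and 49.4%, 53.6% and 56.1% at 171 days. The groups overlapped throughout, and the means went up from 50.5% to 53.2%. The fitted change was 2.48 ± 0.691 points (r = 0.514, permutation p = 0.00108, Benjamini-Hochberg 0.0162; rho = 0.487, permutation p = 0.00246), with r from 0.465 to 0.551 without any 2 of the 3-day libraries and permutation p of at most 0.00335 without any single library. 36 of the 46 regions had a change above 0, beside 57.8% of all regions tested, and 7 rose at an unadjusted p below 0.05, beside 5.05%, whereas 0 fell at that level and 0 passed the adjusted test (limma). The reference marks more than 50% of the bases as repeats in 32 of the 46, beside 7.78% of all regions tested, and many Y genes exist in near-identical copies to which a short read cannot be assigned with certainty.

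Regions above 75% (23606 of them) changed by 0.745 ± 0.295 points (r = 0.388, permutation p = 0.00888), which missed the threshold after adjustment (Benjamini-Hochberg 0.0666) but passed without the 2 libraries that stood apart (0.526 ± 0.169 points, Benjamini-Hochberg 0.0298). Regions on chromosome X changed by 0.439 ± 0.188 points (permutation p = 0.0237, Benjamini-Hochberg 0.118) and intronic regions by 0.431 ± 0.216 points (permutation p = 0.0463, Benjamini-Hochberg 0.174). Promoters changed by 0.0486 ± 0.0948 points (permutation p = 0.613).

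**Figure D5:**
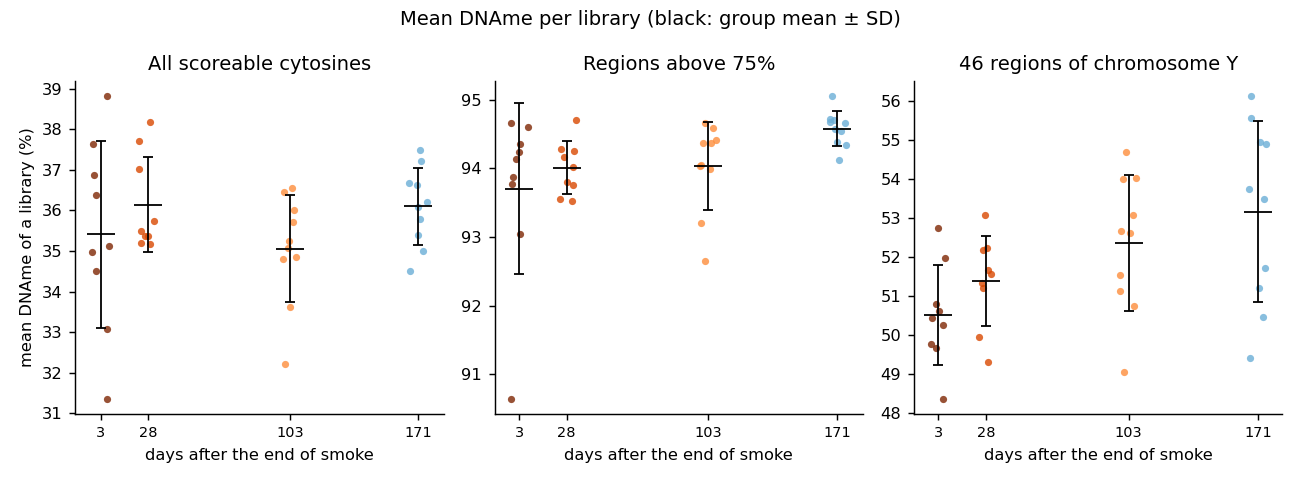
Mean DNAme (%) of each of the 38 libraries against days after the end of smoke, over all scoreable cytosines, over regions with a level above 75% and over the 46 regions of chromosome Y; black marks give the group mean ± SD, and the vertical axes do not start at 0. The Y panel goes from a mean of 50.5% at 3 days to 53.2% at 171 days with overlapping groups, and the other panels have 1 low library at 3 days.

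Changes that are not a line in time were looked for separately. A test for any difference among the 4 groups called 14 regions (0.0223%; limma), of which 13 were also called in the trend. The remaining 1 is intergenic, with Smim15 as the nearest protein-coding start (chromosome 13, 107891888 to 107891945), with means of 0.564%, 4.09%, 1.41% and 5.20% in the order of the groups. For a departure from the line, 0 of 62830 regions passed (0%; limma; 2798 at an unadjusted p below 0.05), and the smallest p belonged to regions near Klra2, Smim15 and Mdm1. Near Klra2 the means were 14.9%, 10.7%, 20.3% and 8.83% (limma adjusted p = 0.592).

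Between neighbouring groups 0 of 62830 regions passed in any of the 3 steps (0% each; limma). An unadjusted p below 0.05 was met by 3216, 3167 and 3681 of the 62830, a level that some regions meet by chance alone. In the step from 103 to 171 days 1 region passed when the spread was taken from all 67 F0 sperm libraries, with array weights, or without the 2 libraries that stood apart. The smallest p of that step were near Dcst1 (65.4% to 45.1%), in Lnx1 (48.9% to 13.6%) and in Galr1 (58.2% to 27.1%), with limma adjusted p of 0.0962, 0.0962 and 0.103. From 28 to 103 days the smallest p was again that of the Adamts9 region (limma adjusted p = 0.792). From 3 to 28 days it was that of a region near Irf2bpl, with 0.401% and 3.28% (limma adjusted p = 0.939), and those after it were near Olfm1 and Mrpl42.

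Lists of genes tied to smoke, methylation and the germ line held 0 called regions each, which at a share of 0.0493% over all regions says nothing about lists of this size. Regions counted for a list lay in a gene body or within 5 kb of its start. NRF2 targets such as Nqo1 and Hmox1, which carry out the antioxidant response, had 53 regions, of which 1 rose and 0 fell at an unadjusted p below 0.05 (median change 0.112 points, beside 0.121 over all regions). That region is intronic in Gsta4, a glutathione transferase, and went from 96.6% ± 1.69 to 98.3% ± 1.56. Genes of the aryl hydrocarbon receptor and markers of smoking had 33 regions, with 3 rising at an unadjusted p below 0.05 near or in Cyp1b1, Ahrr and Rara and 0 falling (median -0.0348 points). Ahrr, the repressor of that receptor, went from 96.3% ± 1.48 to 97.9% ± 1.03.

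Writers and erasers of DNAme had 36 regions, of which 2 rose (in Dnmt3a and Tet1) and 1 fell (in Tet2) at an unadjusted p below 0.05. Genes of spermatogonial stem cells had 45, with 3 rising (1 in Etv5 and 2 at Bcl6b) and 0 falling, and the 5 regions of sperm packaging genes held 0 of either kind. At Bcl6b, a factor of stem cell renewal, the promoter stayed almost unmethylated, from 0.163% ± 0.295 to 0.839% ± 0.890. Hox genes had 165 regions, with 4 rising and 2 falling, and clustered protocadherins had 75, with 3 rising and 2 falling. Beside the shares over all regions (5.05% rising and 1.96% falling), the lists held 1.89% (NRF2 targets), 9.09% (aryl hydrocarbon receptor), 5.56% (writers and erasers), 6.67% (spermatogonial genes), 2.42% (Hox genes), 4% (protocadherins) and 0% (sperm packaging) rising. The shares falling were 2.78% (writers and erasers), 2.67% (protocadherins), 1.21% (Hox genes) and 0% in the other lists. These shares rest on between 0 and 4 regions a list.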

How the data were processed

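RRBS libraries were made from cauda epididymal and vas deferens sperm after swim-out and lysis of somatic cells, with MspI and TaqαI digests. The authors aligned reads to mm10 with Bismark (version not given in the sources used here) and deposited, per group, the percent methylation of each cytosine in each library. The methods of the study count a cytosine as scoreable with a read coverage above 8 in 4 or more replicates; whether the deposited percents were filtered so is not given in the sources used here. Read counts were not used here, so depth is unknown and no counting interval could be given. Columns carry group names and no animal, so each was assigned to a group only and numbered by its order, and 0 columns of values were left unused.

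Cytosines with a value in at least 4 libraries of each of the 7 F0 sperm groups were joined up to 100 bp. A region's value per library was adjusted for which cytosines had a value, and at least 50% of them were needed. Slopes on days, group differences and departures from a line were fitted with limma 3.58.1 in R 4.3.3 over all regions or cytosines, two-sided, with Benjamini-Hochberg adjustment over all of them. Fitted changes span the 168 days from the first to the last group. Per-library values were tested with 100000 two-sided permutations. The fits were tested on simulated data. Named regions were the 7 rising ones, the 12 falling ones with the smallest p and the 6 largest changes among the regions with ordered means, 21 in all (1 of the rising regions is not reported here), and the 3 smallest p of each step and of the departure. The cytosines of Adgrv1 and Gm26917 were picked after their values were seen, as were the regions just outside the threshold. Members, lists and tests were chosen with earlier results of these data known. Settings tried concerned time scale, region building, filters, covariates, weights and left-out groups or libraries; leaving out the 2 libraries that stood apart and a factor for sets of 5 facility library numbers, each with at most 1 library of a WT group, were added after the data were seen. Sequences were read from the RefSeq GRCm38.p6 genome, and genes were those of the GENCODE basic annotation of that build. Libraries of a group, which their labels number as replicates, were taken as separate animals from the methods of the study. No library had the values of another.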

Additional observations from a re-analysis of the deposited data

Results flagged for a closer look

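Among the 92 groups of 9 or 10 libraries (or fewer where a value was missing) that were checked over the named regions, mean DNAme and spread, 8 held a library far from all others of its group by Dixon's criterion, which chance alone meets in about 1 of 20 groups. At 3 days, column 6 of smoked WT had 83.3% at the Hnrnpa3 region, where the others had 75.9% to 78.9%, and 93.8% at the Ephb1 region, where the others had 56.99% to 74.2%. At 28 days, column 2 of recovery 1 had 92.9% at the Osmr region, above the 59.6% to 75.4% of the others. At 103 days, column 7 of recovery 2 had 69.4% at the Hnrnpa3 region (others 73.8% to 76.4%) and 56.1% at the Cdh4 region (others 63.1% to 70.7%), and column 2 had 20.6% at the Ephb1 region (others 45.5% to 61.3%). At 171 days, column 9 of recovery 3 had 88.5% at the Wif1 region (others 67.02% to 76.1%) and column 3 had 70.02% at the Flt1 region (others 74.98% to 79.3%). The calls at Hnrnpa3, Ephb1, Osmr and Cdh4 held in each of the 38 fits that left out 1 library, those at Wif1 in 21 and at Flt1 in 8.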

How the results depend on the processing

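No paired analysis was possible because the columns carry none of the replicate numbers of the labels; a factor for sets of facility numbers, which match no label, is given with the other settings. Against 31 called regions, the count was 15 on log2 of days, 17 on the logit scale, 8 with cytosines joined up to 50 bp, 13 with a trended, robust prior for the variance, 18 with the number of positions as a covariate, 48 among regions with a mean between 5% and 95% (fewer regions tested), 17 without the 103-day group, 2 without the 3-day group and 2 without the 171-day group. Between 21 and 40 regions were called in the other 12 settings, which include 24 without the 2 libraries that stood apart and 21 with sets of facility numbers as a factor, both added after the data were seen. Leaving out 1 library gave 18 to 35. Over the named regions, 0 results changed sign, 107 lost their call in the other settings while 304 held it, and 106 lost it in the fits that left out a library while 692 held it; the cause was not tested. Called cytosines went from 23 to 2 with the trended, robust prior. Regions with any difference among groups went from 14 to 9 with that prior, 26 with array weights and 8 without the 2 libraries. The step from 103 to 171 days called 1 region with the spread from all 67 F0 sperm libraries, 1 with array weights and 1 without the 2 libraries. The change in mean DNAme turned to -0.0379 points without the 3-day group (permutation p = 0.949), -0.621 without the 171-day group (permutation p = 0.407) and -0.0572 without the 2 libraries (permutation p = 0.914), and ran from -0.140 to 0.476 without 1 library, the former without smoked WT column 4. Over cytosines with a value in all 38 libraries it was 0.572 points, and 0.351 without the 2 libraries. The change in spread ran from -0.236 to -0.0747 without 1 library. Without the 2 libraries, 2 classes passed, Y and regions above 75%. The number of positions bears on how many cytosines could be compared, but read depth is unknown, so the counting error of a percent could not be given.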
